A study of Homo sapiens with 48 samples.

Results

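The genes described here are 45 components of the TGF-beta and BMP signaling pathway, picked by symbol from a table of 20241 protein-coding genes in PSN1, a SMAD4-deficient human pancreatic cancer cell line. All 45 symbols were found, namely 8 ligands, 11 receptors and co-receptors, 5 LTBP-family and ligand-processing proteins, 3 antagonists, 6 SMAD signal transducers, 8 intracellular inhibitors and 4 target genes. Bulk RNAseq of 9 libraries, out of 48 samples in the series, covered 3 groups of 3. Parental cells received no drug. TalaR-M cells had been selected for resistance to Talazoparib, a PARP inhibitor, and were kept in it (50 nM for 4 months per the labels). TalaR-DF cells were resistant cells of this selection that were then grown in medium without drug, for 4 weeks per the paper. The paper reports that PSN1 cells were by then almost as sensitive to Talazoparib as parental cells. Below, TalaR-M and TalaR-DF are both named resistant groups, and their libraries resistant libraries. That name gives their origin and not their response to the drug at the time of sampling. No gene edit or transgene is named for any of the 3 groups, and each resistant group derives from 1 parental line, so that past selection and present drug cannot be told apart in TalaR-M against parental. The comparisons ask what sets the resistant cells apart from parental cells and what differs once the drug is taken away. The remaining 39 samples were not analysed here.

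TGF-beta proteins, activins and BMPs are secreted dimers that bring together type II and type I receptor kinases. Receptors for TGF-beta and activin phosphorylate SMAD2 and SMAD3, receptors for BMPs phosphorylate SMAD1, SMAD5 and SMAD9, and both sets of SMADs join SMAD4 to act on genes in the nucleus. TGF-beta is stored in the matrix in a latent complex with LTBP proteins, and in pancreatic cancer the pathway is known for frequent loss of SMAD4 and for its part in epithelial-mesenchymal transition.

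Each value is a log2 CPM as deposited, that is a read count scaled to the size of its library, and a value of 0 stands for 1 CPM or less. The libraries held between 8387755 and 14973847 reads in genes above 1 CPM, and 1 CPM corresponded to 6.97 reads in TalaR-M replicate 2 and to between 11.72 and 14.54 reads in the others. Differences were tested with limma in 1 model of the 3 groups over the 12471 genes above 1 CPM in at least 3 libraries. A gene is said to have risen or fallen only where the Benjamini-Hochberg adjusted p was under 0.05 and the difference reached 2-fold. Nothing in the labels says that the 3 libraries of a group came from separate cultures, so that the p-values measure the spread between these libraries, which may be technical. In bulk RNA, fewer cells that express a gene and less of its RNA per cell cannot be told apart.

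TalaR-M replicate 2 stood apart from the other 2 TalaR-M libraries. It was the shallowest library, with 8387755 reads above 1 CPM. Over the 41 members tested, its values lay at a median of -0.83 log2 from the mean of replicates 1 and 3, against -0.31 over all genes tested, and 28 of the 41 were lower there than in both other libraries while 7 were higher. In all, 18 members were over 1 log2 unit from the mean of the other 2 libraries, against 4 for each of TalaR-M replicates 1 and 3 and 0 for every parental and TalaR-DF library. The median deviation was -1.39 in the 20 members with canonical transcripts longer than 4954 bases and -0.38 in the 21 with transcripts of that length or shorter. The plot of replicate 2 against transcript length shows these deviations. Counts of calls, called differences and levels per length that involve TalaR-M are therefore given with and without this library, and the part of transcript length in them was not tested.

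**Figure D1:**
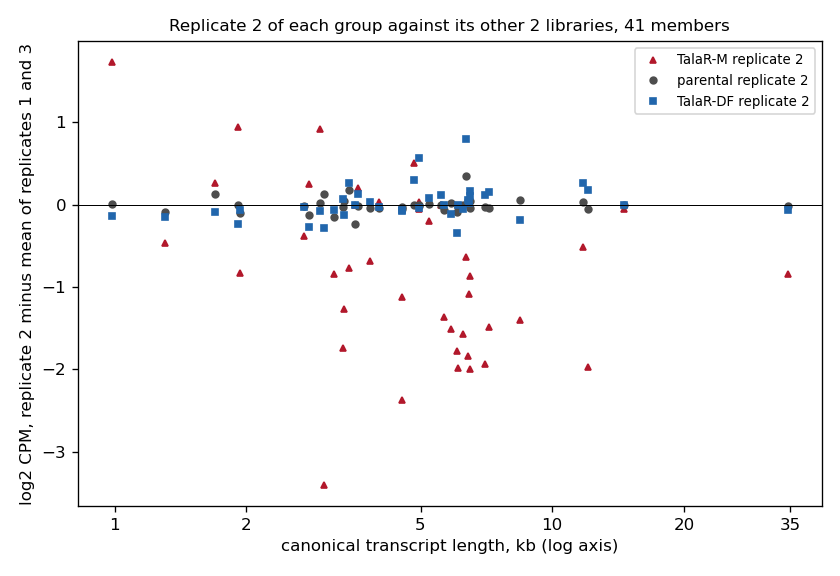
Log2 CPM in replicate 2 minus the mean of replicates 1 and 3 of the same group (y axis) against the canonical transcript length in kb on a log axis (x axis), 1 point per member (41 members) and group. The TalaR-M points (triangles) lie below 0 for most members, at a median of -0.83, while no parental or TalaR-DF point is more than 1 log2 unit from 0.

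The epithelial origin of the cells was checked against marker genes. All 7 ductal epithelial markers (KRT7, KRT8, KRT18, KRT19, EPCAM, SOX9 and MUC1) were above 1 CPM in at least 3 libraries, with KRT8 the most abundant and summed levels of 1199 to 1261 CPM in parental, 1932, 5829 and 1782 CPM in TalaR-M and 1017 to 1153 CPM in TalaR-DF libraries. SOX9, at 6.78 to 6.88 log2 CPM in parental and 6.30, 5.24 and 6.20 in TalaR-M libraries, and MUC1, at 3.46 to 3.52 and at 2.58, 4.19 and 2.87, did not follow the sum. KRT7, at 7.45 to 7.48 and at 7.58, 8.93 and 7.45, followed the sum only in part. KRT8, KRT18, KRT19 and EPCAM were above every parental library in each TalaR-M library. EPCAM was also higher in TalaR-DF (5.36 to 5.5) than in parental libraries (4.8 to 4.91), where the sum was lower in TalaR-DF. Of 8 fibroblast markers, 7 were above 1 CPM in at least 3 libraries, led by COL3A1, and THY1 was listed at 0 in all 9. Their sum was 1795 to 1868 CPM in parental cells, 3408, 1225 and 3350 CPM in TalaR-M and 912.4 to 1028 CPM in TalaR-DF. COL1A2 stood at 7.86, 7.85 and 7.88 log2 CPM in parental libraries, was listed at 0 in the 3 TalaR-M libraries and stood at 3.90, 3.67 and 3.74 in TalaR-DF, while DCN was above 0 only in TalaR-M (1.73, 1.45 and 1.47). LUM, at 5.25 to 5.34 in parental, 0.95 to 2.42 in TalaR-M and 3.36 to 3.59 in TalaR-DF libraries, PDGFRA, at 6.11 to 6.17, 3.69 to 4.94 and 5.82 to 5.92, and PDGFRB, at 6.06 to 6.19, 2.63 to 3.62 and 2.40 to 3.20, were lower in each resistant library than in every parental one, and COL1A1, at 6.45 to 6.55, 8.13 to 8.67 and 3.67 to 3.96, was highest in TalaR-M. Of 4 endothelial markers VWF was listed at 0 throughout. PECAM1 was the most abundant over all 9 libraries together, while KDR was above it in each parental library and in TalaR-M replicate 1. Their sums were 28.79 to 30.91, 5.912 to 9.057 and 2.917 to 3.235 CPM in parental, TalaR-M and TalaR-DF libraries. Of 5 immune markers CD3E and CD68 were listed at 0 throughout. CD14 was the most abundant over all 9 libraries together, while PTPRC was above it in TalaR-M replicate 1. Sums of the immune markers were 11.13 to 14.7, 4.135 to 7.106 and 1.18 to 2.555 CPM in the same order. Of 5 acinar markers CPB1, CELA3A and AMY2A were listed at 0 throughout. CPA1 was the most abundant over all 9 libraries together, while PRSS1 was above it in parental replicates 1 and 3. The acinar sums were 3.619 to 4.387 CPM in parental, 2.281 to 5.323 CPM in TalaR-M and 0 in TalaR-DF libraries. The part of these marker genes in the results on the pathway was not tested.

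Of the 45 members, 41 passed the filter on low values, and INHBB, BMPR1B, SMAD4 and ID3 were listed at 0 in all 9 libraries. BMP2, GREM1 and SMAD9 passed it through the 1 group in which they were above 1 CPM, so their values are given as a description with no p, and none of the 3 is among the members called. In TalaR-M against parental, 4 members rose and 8 fell, against 5.53% of all genes tested that rose and 7.72% that fell, and the median log2 fold change of the 41 was -0.50 against -0.09 over all genes. In TalaR-DF against parental, 1 member rose and 6 fell, against 2.25% and 7.49% of all genes, with a median of -0.21 against 0.01. Between TalaR-M and TalaR-DF, 5 members were higher in TalaR-M and 1 was lower, against 5.29% and 1.64% of all genes, with a median of -0.23 against -0.09. The first 2 comparisons share the parental libraries. Without TalaR-M replicate 2 the median in TalaR-M against parental moved toward 0, to -0.16, where all genes stood at 0.01. In TalaR-M against TalaR-DF it turned sign, from -0.23 to 0.09, where all genes stood at -0.02.

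Without TalaR-M replicate 2, 4 members rose and 6 fell in TalaR-M against parental (6.78% and 7.07% of all genes), as 9 of the 12 members were kept, ACVR1B, ACVR2B and SMURF1 were lost and ID1 was added. The same 7 members passed in TalaR-DF against parental (2.73% and 8.63% of all genes). In TalaR-M against TalaR-DF, 6 members were higher and 0 lower by limma (6.96% and 1.40% of all genes), as 5 were kept, ACVR2B was lost and TGFBI was added. In all, 15 members passed in at least 1 comparison with all libraries and 26 in none, while 18.3% of all genes tested passed in at least 1. With no fold threshold 17, 12 and 10 members had an adjusted p under 0.05 in the 3 comparisons, against 23.6%, 18.6% and 12.0% of all genes, and these counts include BMP2 in the first and second and GREM1 in the first. BMP4 rose in both resistant groups, TGFBR3, LTBP1, LTBP2 and PMEPA1 fell in both, NOG and BAMBI were higher in TalaR-M than in both other groups, and INHBA and ID1 fell in TalaR-DF.

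**Figure D2:**
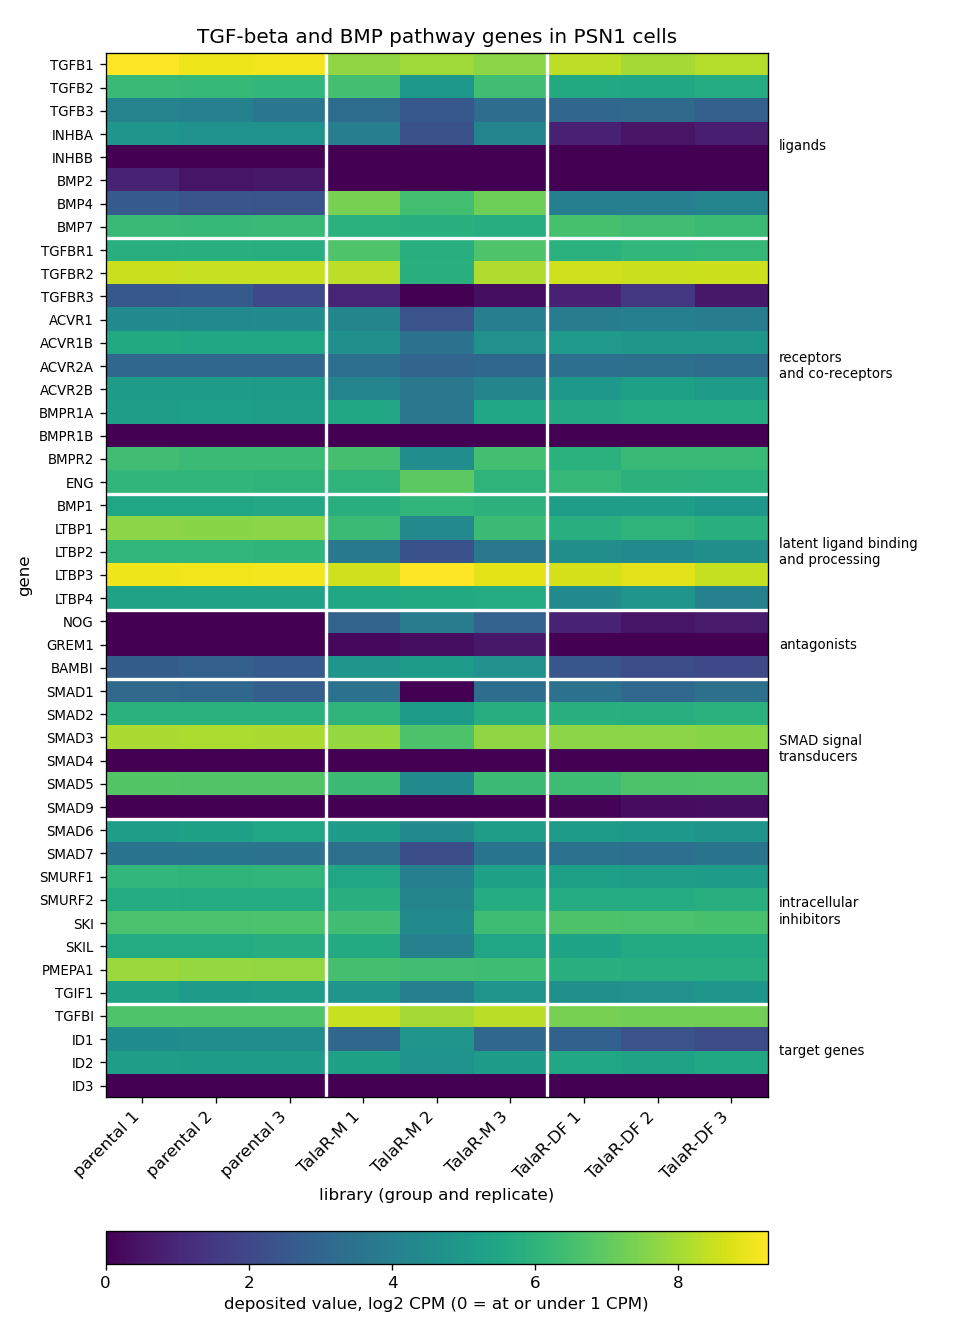
Color gives the log2 CPM of each of the 45 members (rows, grouped by role) in each of the 9 libraries (columns), where 0 stands for 1 CPM or less. BMP4, NOG and BAMBI are brighter in the 3 TalaR-M libraries, INHBA is darkest in the 3 TalaR-DF libraries, and many rows are darker in TalaR-M replicate 2 than in the libraries beside it.

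**Figure D3:**
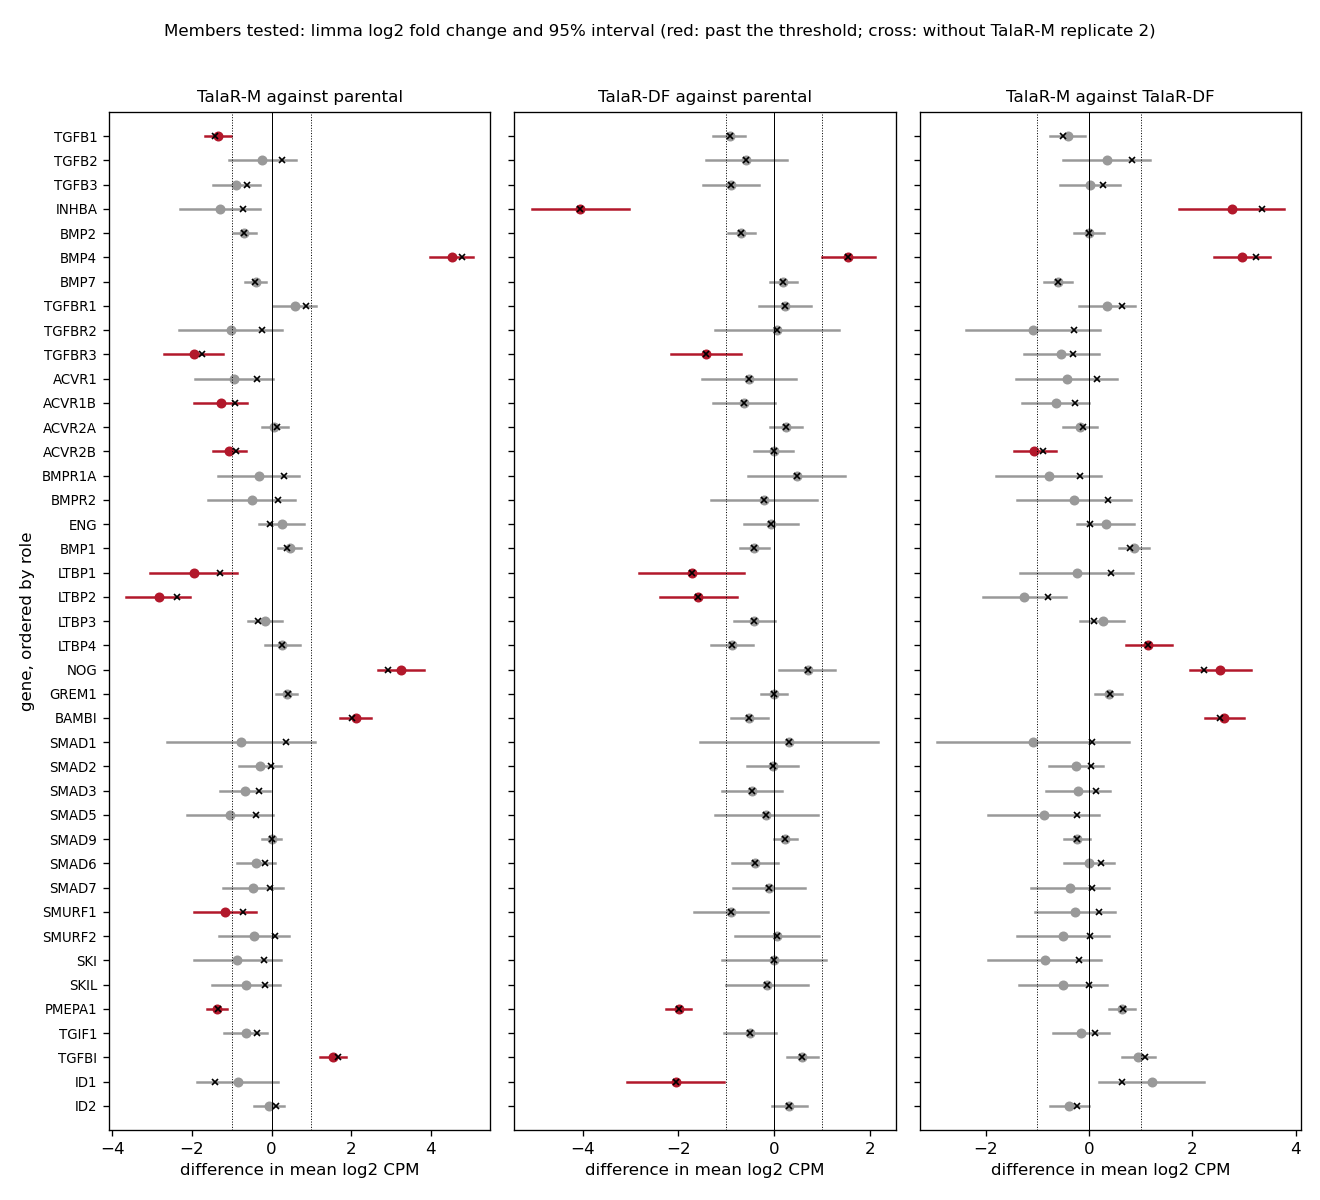
Limma log2 fold changes (points) with 95% intervals (lines) of the 41 members tested, 1 panel for each comparison; red marks the 12, 7 and 6 members past the threshold, crosses the values without TalaR-M replicate 2 and dotted lines 2-fold differences. Most crosses in both panels with TalaR-M lie nearer to 0 than their points or to the right of them.

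Promoter sequences are shown for members that moved in the same direction, BMP4, BAMBI and TGFBI as genes that rose in TalaR-M, as NOG did, and LTBP1, LTBP2 and PMEPA1 as genes lower in both resistant groups. Each window runs from 250 bases before to 50 bases after a start listed for the gene in RefSeq (build GRCh38.p14). It is written 5′ to 3′ on the strand of the gene, and so includes the first bases transcribed from that start. That start need not be the 5′ end of the gene span given below. The BMP4 window lies inside its span (chr14:53949736-53958761), away from the 5′ end, so its matches describe an internal start. The same holds for TGFBR3, whose window (chr1:91886102-91886401) is not printed. The other printed windows include the 5′ end of their spans. Capitals mark CAGAC or its reverse complement GTCTG, the core of the element that SMAD3 and SMAD4 bind, and GGCGCC, a GC-rich element described for SMADs of both branches, which is its own reverse complement. None of the matches printed overlap. The windows are chr14:53955001-53955300 (minus strand) for BMP4, chr10:28677271-28677570 (plus strand) for BAMBI, chr5:136028738-136029037 (plus strand) for TGFBI, chr2:32946703-32947002 (plus strand) for LTBP1, chr14:74612188-74612487 (minus strand) for LTBP2 and chr20:57711423-57711722 (minus strand) for PMEPA1.
BMP4: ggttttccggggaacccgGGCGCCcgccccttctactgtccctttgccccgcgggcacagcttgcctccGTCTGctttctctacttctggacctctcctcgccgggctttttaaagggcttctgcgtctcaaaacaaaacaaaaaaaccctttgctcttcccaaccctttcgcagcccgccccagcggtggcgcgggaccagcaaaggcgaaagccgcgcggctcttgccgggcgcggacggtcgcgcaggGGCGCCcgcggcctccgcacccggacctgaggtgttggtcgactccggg
BAMBI: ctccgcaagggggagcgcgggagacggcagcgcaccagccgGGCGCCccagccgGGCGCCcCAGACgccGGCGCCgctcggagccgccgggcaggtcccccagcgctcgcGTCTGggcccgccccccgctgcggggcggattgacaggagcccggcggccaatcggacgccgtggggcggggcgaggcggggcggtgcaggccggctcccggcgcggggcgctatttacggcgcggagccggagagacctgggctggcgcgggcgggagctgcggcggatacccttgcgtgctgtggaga
TGFBI: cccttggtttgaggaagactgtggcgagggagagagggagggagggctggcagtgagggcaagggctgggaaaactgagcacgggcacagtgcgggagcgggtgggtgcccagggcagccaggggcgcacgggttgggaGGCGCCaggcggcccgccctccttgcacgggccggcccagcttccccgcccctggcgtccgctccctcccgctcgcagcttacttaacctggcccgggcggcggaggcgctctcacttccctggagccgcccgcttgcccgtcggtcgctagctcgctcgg
LTBP1: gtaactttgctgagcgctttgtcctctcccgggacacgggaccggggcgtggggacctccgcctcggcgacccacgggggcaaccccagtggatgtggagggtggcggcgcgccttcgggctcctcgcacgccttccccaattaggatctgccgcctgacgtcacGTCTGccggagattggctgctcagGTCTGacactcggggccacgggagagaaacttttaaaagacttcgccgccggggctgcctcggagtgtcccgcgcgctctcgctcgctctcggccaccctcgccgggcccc
LTBP2: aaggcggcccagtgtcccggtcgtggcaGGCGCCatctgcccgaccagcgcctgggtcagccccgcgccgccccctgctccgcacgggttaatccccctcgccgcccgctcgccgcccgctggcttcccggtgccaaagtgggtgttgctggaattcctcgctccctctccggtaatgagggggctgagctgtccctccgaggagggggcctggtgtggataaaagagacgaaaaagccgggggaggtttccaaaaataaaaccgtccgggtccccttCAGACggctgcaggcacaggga
PMEPA1: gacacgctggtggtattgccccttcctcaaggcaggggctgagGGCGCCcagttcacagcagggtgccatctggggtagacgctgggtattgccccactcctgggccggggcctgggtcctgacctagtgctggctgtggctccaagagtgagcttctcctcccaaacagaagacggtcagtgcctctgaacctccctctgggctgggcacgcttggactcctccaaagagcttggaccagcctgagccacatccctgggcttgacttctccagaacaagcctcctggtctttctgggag
CAGAC on either strand occurred 1 time in the window of BMP4, 2 times in that of BAMBI, 0 times in that of TGFBI, 2 times in that of LTBP1, 1 time in that of LTBP2 and 0 times in that of PMEPA1. GGCGCC occurred 2, 3, 1, 0, 1 and 1 times in the same order, and the window of TGFBR3, which also fell in both resistant groups, held neither. At least 1 CAGAC or GTCTG was present in 21 of the 40 members with a RefSeq window and in 45.3% of 35116 promoters, and GGCGCC in 15 of the 40 and in 19.2% of promoters. Each member entered with 1 window, while the promoters were counted as listed and not reduced to 1 per gene. The shares of members and promoters may therefore not be in like units. Letters in a window describe the sequence and do not show that a SMAD binds there.

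Among the ligands, BMP4 rose in both resistant groups and INHBA fell in TalaR-DF, while TGFB1 fell in TalaR-M. BMP4 (chr14:53949736-53958761, minus strand, 4 exons) encodes a BMP that signals through BMPR1A and BMPR2. It measured 2.65, 2.43 and 2.41 log2 CPM in parental libraries, 7.37, 6.46 and 7.21 in TalaR-M and 3.98, 4.01 and 4.16 in TalaR-DF. The 3 groups did not overlap, with TalaR-M highest and TalaR-DF between it and parental. BMP4 rose 22.9-fold in TalaR-M against parental (log2 fold change 4.52, SE 0.24, adjusted p = 4.73e-06, n = 3 per group, limma). The difference was 4.79 without TalaR-M replicate 2. In TalaR-DF it was 2.94-fold higher than in parental cells (log2 1.55, SE 0.24, adjusted p = 0.00256), and TalaR-M exceeded TalaR-DF 7.80-fold (log2 2.96, adjusted p = 0.000162), or 9.45-fold without TalaR-M replicate 2. With 8 CPM added before the log, the TalaR-DF difference was 0.85 and no longer 2-fold.

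INHBA (chr7:41667168-41705834, minus strand, 3 exons) encodes the subunit of activin A, which signals through SMAD2 and SMAD3. It measured 4.85, 4.70 and 4.74 log2 CPM in parental, 3.95, 2.28 and 4.16 in TalaR-M and 0.84, 0.47 and 0.79 in TalaR-DF libraries. Every TalaR-DF library lay below every TalaR-M library, and these below every parental one. INHBA fell 16.7-fold in TalaR-DF against parental (log2 -4.06, SE 0.44, adjusted p = 0.000401) and was 6.77-fold higher in TalaR-M than in TalaR-DF (log2 2.76, adjusted p = 0.00565), or 10.2-fold without TalaR-M replicate 2. Against parental, TalaR-M differed by -1.30 (adjusted p = 0.0679), and by -0.71 without replicate 2 (adjusted p = 0.00116), which is less than 2-fold. With the parental libraries left out of the model, that last contrast with TalaR-DF had an adjusted p of 0.0565.

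TGFB1 (chr19:41301587-41353922, minus strand, 7 exons), the prototype ligand of the family, measured 9.25, 9.03 and 9.07 log2 CPM in parental, 7.73, 7.94 and 7.64 in TalaR-M and 8.32, 8.0 and 8.22 in TalaR-DF libraries. Parental libraries were highest and TalaR-M lowest, with no overlap. TGFB1 fell 2.54-fold in TalaR-M (log2 -1.35, SE 0.15, adjusted p = 0.000318; -1.43 without replicate 2), and its difference in TalaR-DF was -0.93 (adjusted p = 0.00282), or 1.91-fold. TalaR-M and TalaR-DF differed by -0.41 (adjusted p = 0.107).

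TGFB2, a second TGF-beta isoform, measured 6.26, 6.21 and 6.11 log2 CPM in parental, 6.50, 4.95 and 6.41 in TalaR-M and 5.61, 5.54 and 5.69 in TalaR-DF libraries. TalaR-M replicate 2 was the lowest of all, and the other 2 TalaR-M libraries were the highest. TalaR-M against parental was -0.24 (adjusted p = 0.652) with all libraries and 0.26 (adjusted p = 0.00808) without replicate 2, so that the direction turned. TGFB3, the remaining isoform, measured 4.12, 4.05 and 3.62 in parental, 3.28, 2.53 and 3.31 in TalaR-M and 3.06, 3.21 and 2.83 in TalaR-DF libraries. Every resistant library lay below every parental one. The difference was -0.89 in TalaR-M (adjusted p = 0.0375) and -0.90 in TalaR-DF (adjusted p = 0.0422), both short of 2-fold. In TalaR-M it passed, at -1.01 and -1.02, when TalaR-M replicate 1 or 3 was left out. Without TalaR-M replicate 2 it was -0.63 (adjusted p = 0.00567), further from 2-fold.

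Among the BMP ligands other than BMP4, BMP7 lay between 5.76 and 6.57 log2 CPM in all libraries and was lower in TalaR-M than in parental cells by 0.40 and lower than in TalaR-DF by 0.60, each under 2-fold (log2 -0.40, adjusted p = 0.0405; log2 -0.60, adjusted p = 0.0147). BMP2 measured 0.93, 0.53 and 0.60 in parental libraries and was listed at 0 in the 6 resistant ones. These levels are just above 1 CPM, and the difference of -0.69 in each resistant group corresponds to at least 1.61-fold. INHBB, the subunit of activin B, was listed at 0 throughout.

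The plot of the called members by library shows the values behind these statements for all 15 members.

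**Figure D4:**
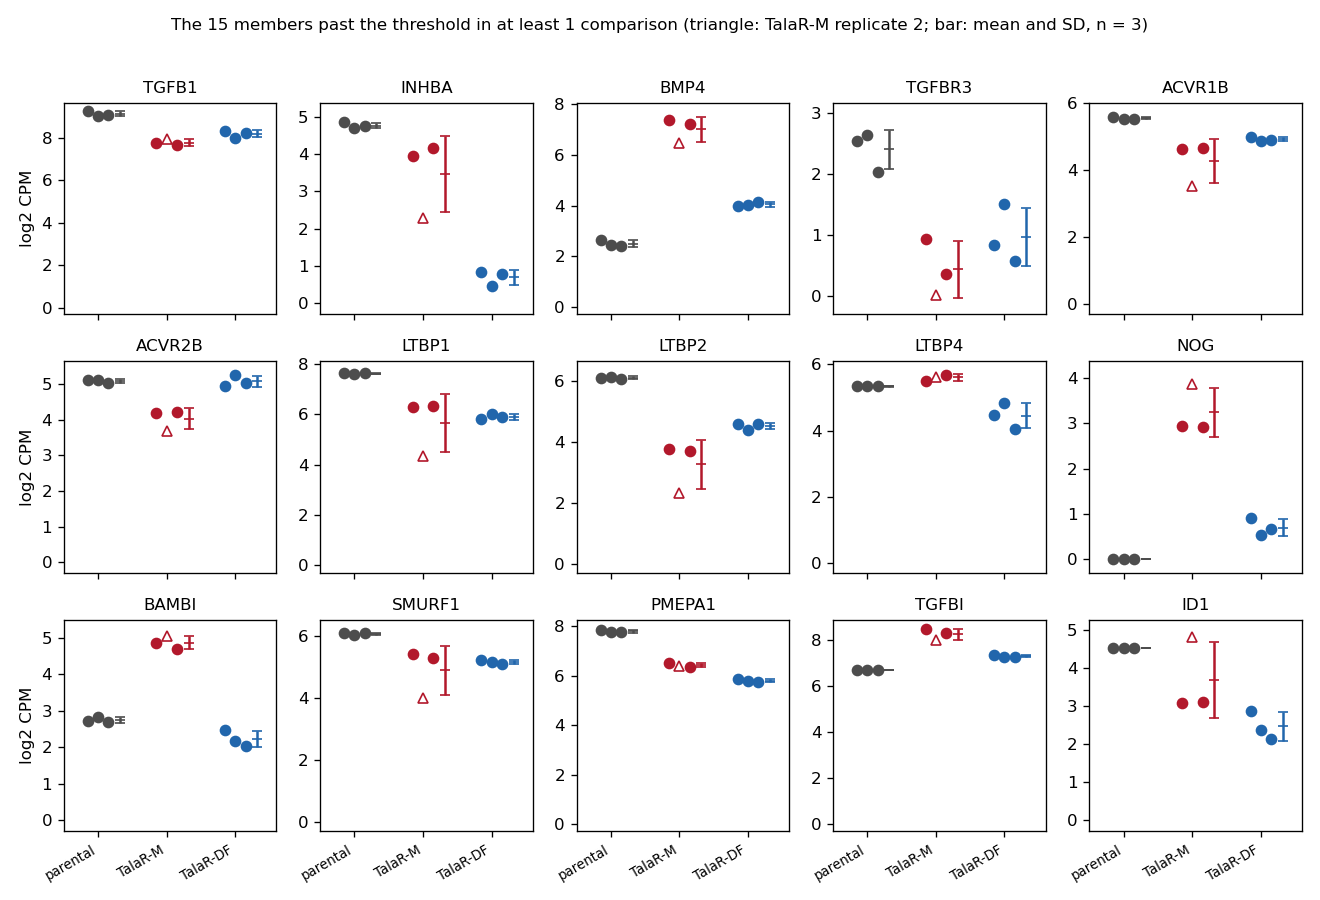
Log2 CPM (y axis) of the 15 members past the threshold in at least 1 comparison, by group (x axis). Points are libraries, the open triangle is TalaR-M replicate 2, and bars give the mean and SD of 3 libraries; BMP4, NOG, BAMBI and TGFBI are highest in TalaR-M, and LTBP1, LTBP2, PMEPA1 and TGFBR3 are highest in parental cells.

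Among the receptors, the co-receptor TGFBR3 fell in both resistant groups, and 2 activin receptors fell in TalaR-M with a dependence on 1 library. TGFBR2 (chr3:30606601-30694142, plus strand), the type II receptor for TGF-beta, measured 8.50, 8.46 and 8.49 log2 CPM in parental, 8.34, 5.88 and 8.16 in TalaR-M and 8.57, 8.50 and 8.55 in TalaR-DF libraries. Only TalaR-M replicate 2 was far from the rest. TalaR-M against parental was -1.02 (adjusted p = 0.218) with all libraries and -0.23 (95% interval -0.38 to -0.09, adjusted p = 0.0102) without replicate 2, and TalaR-DF differed from parental by 0.06 (-0.07 to 0.19 in the fit without that library). TGFBR1, the type I partner, measured 5.80, 5.86 and 5.83 in parental, 6.71, 5.84 and 6.70 in TalaR-M and 5.89, 6.13 and 6.17 in TalaR-DF libraries. TalaR-M replicates 1 and 3 were above every other library. The difference between TalaR-M and parental was 0.58 (adjusted p = 0.111) and, without replicate 2, 0.87 (adjusted p = 2.84e-06), or 1.83-fold.

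TGFBR3 (betaglycan, chr1:91680343-91906335, minus strand, 17 exons) presents TGF-beta, TGFB2 above all, to the signaling receptors. It measured 2.53, 2.63 and 2.03 log2 CPM in parental, 0.94, 0.01 and 0.36 in TalaR-M and 0.84, 1.5 and 0.58 in TalaR-DF libraries. All 6 resistant libraries lay below the 3 parental ones, and the resistant groups overlapped. TGFBR3 fell 3.90-fold in TalaR-M (log2 -1.96, SE 0.32, adjusted p = 0.00292; -1.75 without replicate 2) and 2.68-fold in TalaR-DF (log2 -1.42, SE 0.32, adjusted p = 0.016). These levels are near 1 CPM, and with 8 CPM added the differences were -0.50 and -0.41, under 2-fold. The call in TalaR-DF was lost without parental replicate 1 or 2 or TalaR-DF replicate 1 or 3, with adjusted p from 0.0645 to 0.0686. In the fit without TalaR-M replicate 2 it had a limma adjusted p of 0.00035.

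ACVR1B, a type I receptor for activin, measured 5.61, 5.53 and 5.55 log2 CPM in parental, 4.63, 3.54 and 4.68 in TalaR-M and 5.0, 4.88 and 4.91 in TalaR-DF libraries. ACVR2B, a type II receptor for activin, measured 5.11, 5.10 and 5.03 in parental, 4.17, 3.68 and 4.21 in TalaR-M and 4.94, 5.25 and 5.03 in TalaR-DF libraries. For both genes every TalaR-M library lay below all others, and for ACVR2B parental and TalaR-DF overlapped. ACVR1B fell 2.43-fold in TalaR-M against parental (log2 -1.28, SE 0.28, adjusted p = 0.0134), and ACVR2B fell 2.08-fold against parental (log2 -1.06, SE 0.18, adjusted p = 0.00349) and against TalaR-DF (log2 -1.06, adjusted p = 0.00708). Without TalaR-M replicate 2 the differences from parental were -0.91 (adjusted p = 1.05e-06) and -0.89 (adjusted p = 1.14e-05), under 2-fold for both, and ACVR2B against TalaR-DF was -0.89. The ACVR1B call was also lost without parental replicate 1 or 3 (adjusted p = 0.0552 and 0.0504), and that of ACVR2B against TalaR-DF without TalaR-DF replicate 2 (log2 -0.97).

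The other receptors did not pass in any comparison. ACVR1, ACVR2A, BMPR1A, BMPR2 and ENG differed from parental by -0.95 to 0.25 in TalaR-M, by -0.37 to 0.30 without replicate 2, and by -0.52 to 0.47 in TalaR-DF. These are a BMP and activin type I receptor, an activin type II receptor, the type I and type II receptors for BMPs and the co-receptor endoglin. BMPR1B, another type I receptor for BMPs, was listed at 0 in all libraries.

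Among the LTBP-family and ligand-processing genes, LTBP1 and LTBP2 fell in both resistant groups and LTBP4 was higher in TalaR-M than in TalaR-DF. LTBP1 (chr2:32946953-33399509, plus strand, 34 exons) holds latent TGF-beta in the matrix. It measured 7.63, 7.59 and 7.63 log2 CPM in parental, 6.31, 4.34 and 6.35 in TalaR-M and 5.80, 6.01 and 5.88 in TalaR-DF libraries. Every resistant library was below every parental one. LTBP1 fell 3.87-fold in TalaR-M (log2 -1.95, SE 0.48, adjusted p = 0.0203), or 2.45-fold without replicate 2 (adjusted p = 2.28e-08), and 3.30-fold in TalaR-DF (log2 -1.72, SE 0.48, adjusted p = 0.0395). TalaR-M against TalaR-DF turned from -0.23 to 0.43 without replicate 2. With that library kept, the call in TalaR-M was lost without any 1 parental library (adjusted p from 0.0673 to 0.0705), and the call in TalaR-DF without any 1 parental or TalaR-DF library (adjusted p from 0.102 to 0.12); in the fit without TalaR-M replicate 2 the latter had an adjusted p of 8.65e-10.

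LTBP2 (chr14:74498183-74612378, minus strand, 36 exons) is a matrix protein of the same family that is not known to bind latent TGF-beta. It measured 6.11, 6.14 and 6.05 log2 CPM in parental, 3.75, 2.32 and 3.70 in TalaR-M and 4.57, 4.39 and 4.58 in TalaR-DF libraries. The groups did not overlap, with TalaR-M lowest. LTBP2 fell 7.18-fold in TalaR-M (log2 -2.84, SE 0.35, adjusted p = 0.00068), or 5.19-fold without replicate 2, and 3.00-fold in TalaR-DF (log2 -1.59, SE 0.35, adjusted p = 0.0154). The TalaR-DF call was lost without any 1 parental or TalaR-DF library, at adjusted p from 0.0524 to 0.0622. In the fit without TalaR-M replicate 2 it had a limma adjusted p of 1.07e-08. TalaR-M against TalaR-DF was -1.26 (adjusted p = 0.0547), and -0.79 without TalaR-M replicate 2.

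LTBP4 (chr19:40592883-40629818, plus strand, 30 exons), which also binds latent TGF-beta, measured 5.33, 5.33 and 5.34 log2 CPM in parental, 5.5, 5.63 and 5.69 in TalaR-M and 4.46, 4.83 and 4.06 in TalaR-DF libraries. All TalaR-M libraries were slightly above the parental ones and all TalaR-DF libraries below them. LTBP4 was 2.23-fold higher in TalaR-M than in TalaR-DF (log2 1.15, SE 0.19, adjusted p = 0.00696; 1.14 without TalaR-M replicate 2), while TalaR-DF differed from parental by -0.88 (adjusted p = 0.0149). The first difference was 0.96 without TalaR-DF replicate 3 and 0.92 with 8 CPM added, and had an adjusted p of 0.0624 in a model of these groups alone, and the second reached -1.07 without TalaR-DF replicate 2. LTBP3 lay between 8.44 and 9.23 log2 CPM and passed in no comparison. BMP1, a metalloprotease that cleaves procollagen and LTBP1 and is no BMP ligand, lay between 4.95 and 6.09 and was 1.82-fold higher in TalaR-M than in TalaR-DF (log2 0.87, adjusted p = 0.00392), which is less than 2-fold; it reached 1.02 under median ratio scaling.

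Of the antagonists, NOG and BAMBI were higher in TalaR-M than in both other groups. NOG (noggin, chr17:56593699-56595611, plus strand, 1 exon) encodes a secreted protein that traps BMPs, BMP4 among them. It was listed at 0 in the 3 parental libraries and measured 2.93, 3.87 and 2.92 log2 CPM in TalaR-M and 0.90, 0.54 and 0.66 in TalaR-DF. The groups did not overlap, and TalaR-M replicate 2 was the highest library. NOG rose at least 9.46-fold in TalaR-M against the parental floor of 1 CPM (log2 3.24, SE 0.25, adjusted p = 4.7e-05), or at least 7.60-fold without replicate 2, and was 5.83-fold higher in TalaR-M than in TalaR-DF (log2 2.54, adjusted p = 0.000505; 4.68-fold without replicate 2). The parental libraries, all at the floor, add no spread of their own to this test. TalaR-DF differed from parental by 0.70 (adjusted p = 0.103; 0.000522 without TalaR-M replicate 2), and with 8 CPM added TalaR-M exceeded TalaR-DF by 0.88.

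BAMBI (chr10:28677510-28682932, plus strand, 3 exons) encodes a receptor-like membrane protein without a kinase that blocks signaling by TGF-beta and BMP receptors. It measured 2.71, 2.83 and 2.70 log2 CPM in parental, 4.86, 5.03 and 4.68 in TalaR-M and 2.48, 2.17 and 2.04 in TalaR-DF libraries. TalaR-M was highest and TalaR-DF lowest, without overlap. BAMBI rose 4.30-fold in TalaR-M against parental (log2 2.11, SE 0.17, adjusted p = 5.42e-05; 2.02 without replicate 2) and was 6.17-fold higher than in TalaR-DF (log2 2.62, adjusted p = 5.74e-05; 2.54 without replicate 2). TalaR-DF differed from parental by -0.52 (adjusted p = 0.0711). GREM1, a secreted BMP antagonist, measured 0.21, 0.34 and 0.58 in TalaR-M and was listed at 0 in the other 6 libraries. These levels are close to 1 CPM, and the difference of 0.38 corresponds to at least 1.3-fold.

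The SMAD signal transducers showed no call in any comparison by limma, and of the 4 tested besides SMAD9, 1 was at an unadjusted p under 0.05 in TalaR-M against parental (37.6% of all genes) and 0 in TalaR-DF against parental and between the resistant groups (29.4% and 29.8%). Without TalaR-M replicate 2 these counts were 3, 3 and 2 (64.2%, 66.6% and 55.0% of all genes), and again none was called. SMAD4 (chr18:51028528-51085045, plus strand), the common partner of the other SMADs, was listed at 0 in all 9 libraries. POLR2F, a subunit of the RNA polymerases that every cell needs, was also listed at 0 in all 9, so that a 0 in this table states only what is listed. SMAD3 (chr15:67063763-67195173, plus strand) lay between 6.68 and 8.10 log2 CPM, SMAD2 between 5.05 and 6.01, and SMAD5, which serves BMP receptors, between 4.41 and 6.79. SMAD1, also of the BMP branch, was listed at 0 in TalaR-M replicate 2 and lay between 2.79 and 3.49 elsewhere, and SMAD9 was above 0 only in TalaR-DF (0.05, 0.31 and 0.33). In every one of SMAD1, SMAD2, SMAD3 and SMAD5, TalaR-M replicate 2 was the lowest library of all.

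With all libraries the differences of TalaR-M from parental ran from -1.05 in SMAD5 to -0.29 in SMAD2, and SMAD9 was listed at 0 in both groups. Without TalaR-M replicate 2 they were 0.37 in SMAD1 (95% interval 0.03 to 0.70), -0.01 in SMAD2 (-0.17 to 0.16), -0.32 in SMAD3 (-0.44 to -0.20) and -0.40 in SMAD5 (-0.58 to -0.22). SMAD3 and SMAD5 then had adjusted p-values of 0.000408 and 0.00152 with differences under 2-fold. In TalaR-DF the same fit gave 0.32 in SMAD1 (0.02 to 0.62), -0.03 in SMAD2 (-0.18 to 0.12), -0.46 in SMAD3 (-0.56 to -0.35) and -0.17 in SMAD5 (-0.33 to -0.00). In this fit none of the 8 intervals reached a 2-fold difference, while with all libraries those of SMAD1, SMAD3 and SMAD5 did.

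Among the intracellular inhibitors, PMEPA1 fell in both resistant groups. PMEPA1 (chr20:57648392-57711536, minus strand, 4 exons) is induced by TGF-beta and holds SMAD2 and SMAD3 away from the receptor. It measured 7.85, 7.78 and 7.75 log2 CPM in parental, 6.53, 6.40 and 6.37 in TalaR-M and 5.87, 5.77 and 5.75 in TalaR-DF libraries. The groups did not overlap, and TalaR-M replicate 2 lay between its neighbours. PMEPA1 fell 2.57-fold in TalaR-M (log2 -1.36, SE 0.11, adjusted p = 5.86e-05; -1.35 without replicate 2) and 3.99-fold in TalaR-DF (log2 -1.99, SE 0.11, adjusted p = 8.54e-06). TalaR-M exceeded TalaR-DF by 0.63 (adjusted p = 0.00847), under 2-fold.

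SMURF1, a ubiquitin ligase for SMADs and receptors, measured 6.11, 6.04 and 6.10 log2 CPM in parental, 5.42, 4.00 and 5.30 in TalaR-M and 5.24, 5.18 and 5.12 in TalaR-DF libraries. Every resistant library was below every parental one. SMURF1 fell 2.26-fold in TalaR-M with all libraries (log2 -1.17, SE 0.34, adjusted p = 0.0383), and the difference without replicate 2 was -0.72, or 1.65-fold (adjusted p = 5.01e-06). The call was lost under 12 of 17 alternatives, among them leaving out any 1 parental or TalaR-DF library (adjusted p from 0.0662 to 0.116). TalaR-DF differed from parental by -0.90, under 2-fold (adjusted p = 0.11, and 2.72e-07 in the limma fit without TalaR-M replicate 2). The inhibitory SMADs SMAD6 and SMAD7, the ligase SMURF2, the co-repressors SKI and SKIL and the repressor TGIF1 passed in no comparison. They differed from parental by -0.86 to -0.39 in TalaR-M, by -0.37 to 0.08 without replicate 2 and by -0.50 to 0.06 in TalaR-DF.

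Of the 4 target genes, TGFBI rose in TalaR-M and ID1 fell in TalaR-DF. TGFBI (chr5:136028988-136063818, plus strand, 17 exons) encodes a matrix protein that TGF-beta induces. It measured 6.71, 6.69 and 6.71 log2 CPM in parental, 8.46, 7.99 and 8.29 in TalaR-M and 7.34, 7.28 and 7.27 in TalaR-DF libraries. The groups did not overlap, and TalaR-DF lay between the others. TGFBI rose 2.91-fold in TalaR-M (log2 1.54, SE 0.14, adjusted p = 0.000107; 1.67 without replicate 2), and TalaR-DF differed from parental by 0.59 (adjusted p = 0.0196). TalaR-M exceeded TalaR-DF by 0.95 (adjusted p = 0.00364), and by 1.08 without replicate 2 and 1.10 under median ratio scaling, where it passed.

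ID1 (chr20:31605283-31606515, plus strand, 2 exons), an inhibitor of basic helix-loop-helix factors and a direct BMP target, measured 4.51, 4.52 and 4.52 log2 CPM in parental, 3.08, 4.82 and 3.11 in TalaR-M and 2.87, 2.37 and 2.14 in TalaR-DF libraries. TalaR-M replicate 2 was above the parental libraries and the other 2 TalaR-M libraries were below them. ID1 fell 4.17-fold in TalaR-DF (log2 -2.06, SE 0.45, adjusted p = 0.0139). In TalaR-M the difference was -0.85 (adjusted p = 0.199), and without replicate 2 ID1 fell by 1.42 on the log2 scale (adjusted p = 2.78e-05). The TalaR-DF call was lost without any 1 parental library or TalaR-DF replicate 2 or 3, at adjusted p from 0.0546 to 0.0631, and it had an adjusted p of 4.78e-07 without TalaR-M replicate 2. ID2, a relative of ID1, lay between 4.76 and 5.5 and passed in no comparison, and ID3 was listed at 0 throughout.

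Levels were set side by side between genes per length, as CPM per kb of the canonical transcript (mean ± SD, n = 3). Among the ligands of parental cells, TGFB1 stood at 200 ± 16.8, followed by BMP7 at 18.8 ± 0.344, TGFB2 at 12.5 ± 0.661, INHBA at 4.49 ± 0.245, TGFB3 at 4.48 ± 0.794, BMP4 at 2.93 ± 0.276 and BMP2 at 0.458 ± 0.0716. INHBA and TGFB3 did not differ beyond their spread. In TalaR-M, TGFB1 at 79.0 ± 8.5 and BMP4 at 69.3 ± 21.0 were the leading ligands and were within their spread of each other, ahead of BMP7 at 14.2 ± 0.699 and TGFB2 at 11.7 ± 5.6. The order of means within both of these pairs turned without TalaR-M replicate 2, with BMP4 at 81.1, TGFB1 at 74.2, TGFB2 at 15 and BMP7 at 14.1 CPM per kb. In TalaR-DF, TGFB1 at 105 ± 11.6 and BMP7 at 21.6 ± 1.95 led, and BMP4 at 8.58 ± 0.577 and TGFB2 at 8.36 ± 0.443 were within their spread of each other, with INHBA at 0.271 ± 0.0365.

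On the same scale TGFBR2, at 79.0 ± 1.01 in parental, 49.3 ± 31.7 in TalaR-M and 82.3 ± 2.04 in TalaR-DF cells, was the receptor with the highest mean in each group. ENG came next at 22.8 ± 0.569, 28.4 ± 11.2 and 21.8 ± 2.09. TGFBR3, at 0.844 ± 0.175, 0.221 ± 0.0741 and 0.322 ± 0.111, was the lowest of the receptors tested. LTBP3, at 110 ± 2.73, 100 ± 22.2 and 83.2 ± 11.5, was the highest of the 4 LTBP genes, and SMAD3, at 41.8 ± 0.598, 27.7 ± 10.2 and 30.5 ± 0.575, the highest of the SMADs. Among the antagonists BAMBI exceeded NOG in each group, at 17.2 ± 2.08 against 5.20 ± 2.13 in TalaR-M and 2.80 ± 0.449 against 0.853 ± 0.109 in TalaR-DF. With TalaR-M replicate 2 left out the TalaR-M means were 67.4 for TGFBR2, 22.0 for ENG, 0.253 for TGFBR3, 88.5 for LTBP3, 33.5 for SMAD3, 16.1 for BAMBI and 3.97 for NOG, and these orders held.

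The wider pathway was read from 92 further genes (ligands, antagonists, receptors, activators of latent TGF-beta, intracellular regulators and targets), of which 58 passed the filter. In TalaR-M against parental 10 rose and 13 fell, 39.7% of those tested against 13.3% of all genes, with a median log2 fold change of -0.34 against -0.09. In TalaR-DF 1 rose and 11 fell, 20.7% against 9.73%, with a median of -0.32 against 0.01. Between TalaR-M and TalaR-DF 11 were higher in TalaR-M and 1 was lower, 20.7% against 6.93%, with a median of 0.22 against -0.09. Without TalaR-M replicate 2 the counts were 12 and 13 (6.78% and 7.07% of all genes), then 1 and 13 (2.73% and 8.63%), then 14 and 1 (6.96% and 1.40%). The genes higher in TalaR-M include BMPER, DCN and NEDD9 in both comparisons, which would not have passed the filter on low values without TalaR-M. None of the 15 intracellular regulators tested passed in any comparison by limma, with 4, 0 and 2 at an unadjusted p under 0.05 (37.6%, 29.4% and 29.8% of all genes), or 13, 10 and 5 without TalaR-M replicate 2 (64.2%, 66.6% and 55.0% of all genes), where again none reached the threshold.

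Of the 19 TGF-beta target genes tested, 4 rose and 6 fell in TalaR-M (5.53% and 7.72% of all genes), 0 rose and 7 fell in TalaR-DF (2.25% and 7.49%), and 7 were higher and 0 lower in TalaR-M than in TalaR-DF (5.29% and 1.64%). Without TalaR-M replicate 2 the counts were 5 and 6, then 0 and 7, then 8 and 0. In TalaR-M against parental, CDKN2B and LIF were then lost and JUNB, SPHK1 and PTHLH added, and PTHLH was also added against TalaR-DF; apart from SPHK1 these were named after their values were seen. CTGF, a matricellular protein now named CCN2, measured 3.65, 3.65 and 3.73 log2 CPM in parental, 5.89, 5.61 and 5.91 in TalaR-M and 4.05, 4.21 and 4.09 in TalaR-DF libraries. TalaR-M was highest without overlap, and CTGF rose 4.37-fold there (log2 2.13, adjusted p = 1.57e-05) and was 3.23-fold higher than in TalaR-DF, or 4.67-fold and 3.45-fold without replicate 2.

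TAGLN, an actin-binding protein of contractile cells, rose 5.70-fold in TalaR-M (log2 2.51, adjusted p = 0.000125; 4.75-fold without replicate 2) from 0.73 to 0.77 log2 CPM in parental libraries, and LMCD1, a LIM-domain protein, rose at least 4.85-fold from 0 in each parental library (adjusted p = 1.52e-05; at least 5.06-fold without replicate 2). BHLHE40, a circadian repressor, fell 4.57-fold (log2 -2.19, adjusted p = 0.00595), or 3.09-fold without replicate 2. NEDD9, an adaptor in focal adhesions, exceeded TalaR-DF, where it was listed at 0, at least 5.14-fold in TalaR-M (log2 2.36, and 2.85 without replicate 2). It would not have passed the filter on low values without TalaR-M, so it is described with no p, although it is counted among the target genes called. In TalaR-DF, ANGPTL4, an inhibitor of lipoprotein lipase, fell 5.25-fold (log2 -2.39, adjusted p = 0.00417), and the cell cycle inhibitor CDKN1A fell 3.60-fold (log2 -1.85, adjusted p = 0.000999). The cytokine IL11 fell 2.88-fold there (log2 -1.53, adjusted p = 0.0158) and was 3.38-fold higher in TalaR-M than in TalaR-DF (2.66-fold without replicate 2), and SPHK1, a lipid kinase, and TPM1, a tropomyosin, fell 2.31-fold and 2.21-fold in TalaR-DF (adjusted p = 0.0396 and 0.0168).

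**Figure D5:**
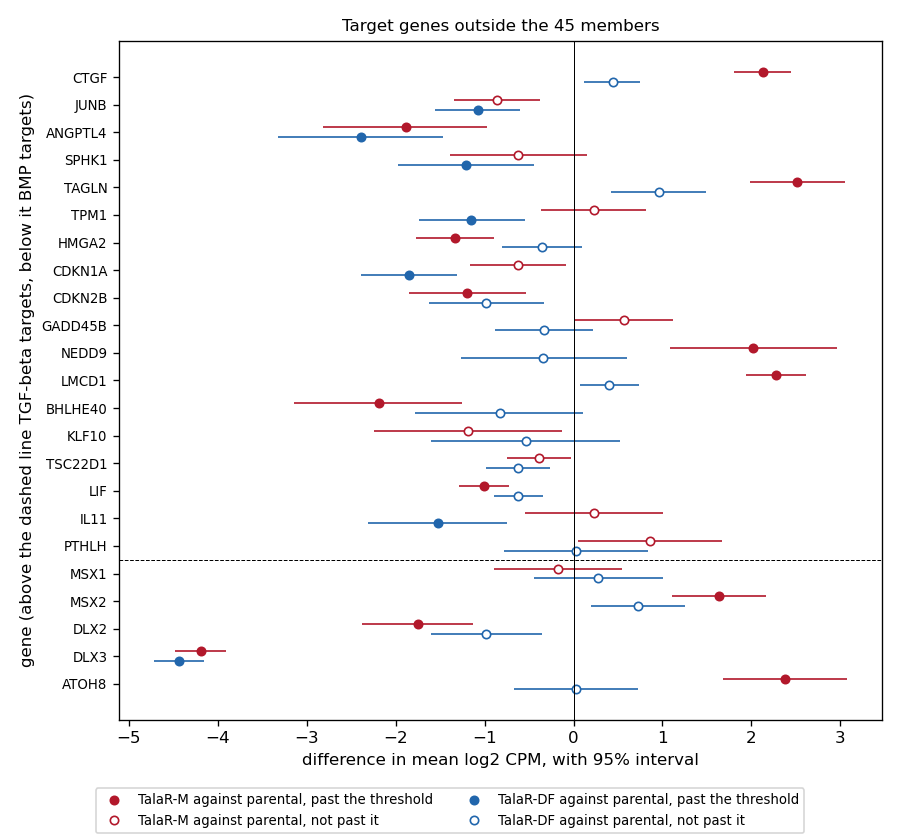
Limma log2 fold changes with 95% intervals of 18 of the 19 TGF-beta target genes tested (above the dashed line) and 5 BMP target genes (below it) outside the 45 members, TalaR-M against parental in red and TalaR-DF against parental in blue. Filled points passed the threshold; ANGPTL4 and DLX3 lie to the left in both comparisons, and CTGF, TAGLN, NEDD9, LMCD1, MSX2 and ATOH8 are filled to the right in TalaR-M.

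Of the 5 BMP target genes tested, 2 rose and 2 fell in TalaR-M (5.53% and 7.72% of all genes) and 1 fell in TalaR-DF (7.49%), with the same counts without TalaR-M replicate 2. DLX3, a homeobox factor, measured 4.52, 4.45 and 4.34 log2 CPM in parental and 0.29, 0.34 and 0.10 in TalaR-M libraries and was listed at 0 in TalaR-DF. It fell 18.3-fold in TalaR-M (log2 -4.19, adjusted p = 2.75e-07; -4.24 without replicate 2) and at least 21.7-fold in TalaR-DF (adjusted p = 2.75e-07). ATOH8, a helix-loop-helix factor, measured 1.26, 1.16 and 1.03 in parental, 3.25, 4.28 and 3.06 in TalaR-M and 1.43, 1.13 and 0.98 in TalaR-DF libraries. TalaR-M was highest, parental and TalaR-DF overlapped, and ATOH8 rose 5.21-fold against parental (log2 2.38, adjusted p = 0.000855) and was 5.11-fold higher than in TalaR-DF (adjusted p = 0.00201), or 4.01-fold and 3.93-fold without replicate 2. The homeobox factors MSX2 and DLX2, named after their values were seen, were the other 2 called (log2 1.64 and -1.75 in TalaR-M, 1.48 and -1.48 without replicate 2).

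Of 6 extracellular antagonists tested, BMPER and DCN were above 1 CPM in TalaR-M alone and passed the filter only through that group, so they are described with no p, and 1 of the other 4 fell in TalaR-M (7.72% of all genes). In the fit leaving out TalaR-M replicate 2 a second one, the BMP antagonist NBL1, named after its values were seen, also fell (log2 -0.23 with all libraries and -1.35 without it, adjusted p = 2.65e-05). BMPER, a secreted BMP modulator, was listed at 0 in all parental and TalaR-DF libraries and measured 3.22, 2.24 and 3.24 log2 CPM in TalaR-M, at least 7.46-fold higher, or at least 9.38-fold without replicate 2. DCN (decorin), a matrix proteoglycan that binds TGF-beta and also one of the fibroblast markers above, showed the same pattern at a lower level, at least 2.93-fold higher in TalaR-M (log2 1.55), or at least 3.04-fold without replicate 2. VASN, a membrane protein that traps TGF-beta, measured 5.93, 5.72 and 5.88 in parental, 3.19, 3.86 and 3.54 in TalaR-M and 3.60, 3.23 and 3.10 in TalaR-DF libraries. Both resistant groups were far below parental cells and overlapped each other, with falls of 4.98-fold (log2 -2.32, adjusted p = 0.000116; 5.59-fold without TalaR-M replicate 2) and 5.79-fold (log2 -2.53, adjusted p = 8.79e-05).

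Of 6 genes for activation of latent TGF-beta, THBS1 rose in both resistant groups (5.53% and 2.25% of all genes), 2 fell in TalaR-M (7.72%), and calls in all of the 6 but ITGAV depended on TalaR-M replicate 2 in at least 1 comparison. THBS1, a thrombospondin that can activate latent TGF-beta, measured 5.81, 5.85 and 5.89 log2 CPM in parental, 10.62, 7.57 and 10.58 in TalaR-M and 8.29, 8.42 and 8.34 in TalaR-DF libraries. All resistant libraries were above parental ones, and TalaR-M replicate 2 lay below the TalaR-DF libraries while its 2 neighbours lay above them. It rose 13.3-fold in TalaR-M (log2 3.74, SE 0.72, adjusted p = 0.00661), or 26.9-fold without replicate 2, and 5.66-fold in TalaR-DF (log2 2.5, adjusted p = 0.0442). TalaR-M against TalaR-DF was 1.24 (adjusted p = 0.264), and 2.25 without replicate 2 (adjusted p = 3.24e-10). FBN1 (fibrillin 1), the scaffold that LTBPs attach to, was 5.35-fold higher in TalaR-M than in TalaR-DF (log2 2.42, adjusted p = 0.0339), or 9.35-fold without replicate 2. Against parental, FBN1 differed by 0.87 in TalaR-M (adjusted p = 0.306) and by -1.55 in TalaR-DF (adjusted p = 0.116), and without that library it rose in TalaR-M (log2 1.67, adjusted p = 1.75e-06) and fell in TalaR-DF (log2 -1.55, adjusted p = 1.21e-06). ITGB8, an integrin subunit that takes part in activation and was named after its values were seen, passed only without that library, lower in TalaR-DF than in parental cells (log2 -1.38, adjusted p = 2.3e-07) and higher in TalaR-M than in TalaR-DF (log2 1.47, adjusted p = 8.01e-07). NRROS and FURIN, named after their values were seen, fell in TalaR-M with all libraries (log2 -1.07 and -1.06) but were under 2-fold without replicate 2 (-0.94 and -0.80). Of 5 other ligands tested, 2 fell in TalaR-M and 2 in TalaR-DF (7.72% and 7.49% of all genes). BMP8B fell in TalaR-M and TalaR-DF (log2 -2.11 and -1.61, the first -2.06 without TalaR-M replicate 2), and GDF15, a stress-induced ligand, was 4.68-fold lower in TalaR-M than in TalaR-DF (log2 -2.23, adjusted p = 0.00958), or 6.80-fold without replicate 2. GDF15 also fell in TalaR-M against parental (log2 -1.60, adjusted p = 0.0229; -2.14 without replicate 2). INHA, the inhibin alpha subunit, named after its values were seen, fell in TalaR-DF (log2 -1.01, adjusted p = 0.0075) and passed in TalaR-M only without replicate 2 (log2 -1.04).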

How the data were processed

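PSN1 libraries were poly(A)-selected, strand-specific and read as pairs of 150 bases. The authors deposited log2 CPM values (read counts scaled to library size), floored at 0, for protein-coding genes on the hg38 build named in the submitters' processing notes; the aligner, counter, its strand setting and annotation are not given in the sources used here, so reads of overlapping or antisense genes cannot be told apart. Columns named maintain and withdraw were matched to TalaR-M and TalaR-DF by the sample titles. Values under 50 CPM came out as whole reads to within 0.01 in 100.0% of cases, which gave the depth. No pseudocount was added. limma 3.58.1 in R 4.3.3, with a mean-variance trend and Benjamini-Hochberg adjustment over 12471 genes, gave two-sided p-values, SEs and 95% intervals; with 3 libraries per group an exact permutation test could not pass 0.05. Coordinates and transcript lengths were from GENCODE 44, promoters from RefSeq. Per-library values were given for members called in a comparison or in the fit without TalaR-M replicate 2 and for TGFB1 to TGFB3, TGFBR1, TGFBR2 and SMAD4; of the wider list, up to 10 genes called per comparison were named by size of difference, and those added after their values were seen are marked in the text; 2 genes counted in the lists are not reported here by name. The members and lists were chosen with earlier results of these data known, so their counts are not independent evidence. Alternatives changed the pseudocount, filter, scaling, trend, block, groups fitted, fold threshold, library weights and libraries.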

Additional observations from a re-analysis of the deposited data

How the results depend on the processing

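Counts of members called stayed within 1.5 times of 12 for TalaR-M and 7 for TalaR-DF, each against parental, and of 6 between the resistant groups, under most alternatives. The last fell to 3 in a fit of the 2 groups alone and to 3 with 8 CPM added before the log, and without a fold threshold the counts were 17, 12 and 10 (23.6%, 18.6% and 12.0% of all genes). With neither a fold threshold nor TalaR-M replicate 2 the counts were 29, 27 and 23 (7506, 7850 and 6084 of 12471 genes). Leaving out 1 library gave 9 to 14, 3 to 7 and 5 to 7 calls; the lowest, 3, came in TalaR-DF against parental without parental replicate 1, parental replicate 2 or TalaR-DF replicate 3, and it was 4 without parental replicate 3. With limma array weights, which gave TalaR-M replicate 2 a weight of 0.0133 against 0.864 to 3.4 for the others, the counts were 10, 7 and 6. Of the 57 gene values carried through these alternatives, 4 turned direction, none of them called: TGFB2 in TalaR-M against parental was 0.25 with array weights and ranged from -0.51 to 0.26 with 1 library left out, and in TalaR-M against TalaR-DF, SMURF1 was 0.16 (-0.53 to 0.19), LTBP1 was 0.42 (-0.58 to 0.43) and TGFB3 ranged from -0.12 to 0.27. The positive values of TGFB2, SMURF1 and LTBP1 came without TalaR-M replicate 2, and the negative ones of TGFB3 without TalaR-M replicate 1 (-0.11) or 3 (-0.12) or TalaR-DF replicate 3 (-0.09). ACVR2B in TalaR-DF against parental, at -0.00 in the main fit, is not counted among these 4 and ranged from -0.09 to 0.06. Over all 41 members tested, leaving out TalaR-M replicate 2 turned 7 uncalled values in TalaR-M against parental (BMPR1A, BMPR2, ENG, ID2, SMAD1, SMURF2 and TGFB2), 10 between the resistant groups and 0 in TalaR-DF against parental. Median ratio scaling moved the median of all genes from -0.09 to 0.03 in TalaR-M against TalaR-DF; there ACVR2B was lost and TGFBI, BMP1 and LTBP2 were added, and in TalaR-M against parental ACVR2B was lost and INHBA added (-1.19). Replicate numbers did not pair the libraries, as same-numbered libraries correlated at -0.31 to 0.16 in their deviations from the group means, over 0.1 in 2 of 9 pairs. With the number as a replicate block the counts were 11, 6 and 6, SMURF1 (adjusted p = 0.0506) and LTBP1 in TalaR-DF (adjusted p = 0.0613) being lost. The causes were not tested. Reads per library limit genes near 1 CPM, such as TGFBR3, BMP2, GREM1 and SMAD9.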
